A study of Mus musculus with 15 samples.

Results

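Macrophages sorted as CX3CR1-low and CCR2-low from the visceral fat of C57BL/6 mice were sequenced after myocardial infarction (MI) and after sham surgery. These are 6 of the 15 RNA libraries of the study, 3 from mice with MI and 3 from mice without it, and they were taken by their labels. The other libraries hold fat macrophages and blood monocytes of mice at steady state. The labels give the strain, the tissue, the sort and the surgery. The sources used here do not give the ages, the time after MI, the number of cells sorted or whether animals were pooled. The labels call the cells CX3CR1- CCCR2-, and the libraries are numbered 1, 3 and 4 in each group, as in the column names of the table. No label ties a number to an animal or a day. The p-values therefore measure the spread between these libraries, which may be in part technical.

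Resident macrophages of adipose tissue take up dying cells, lipid and iron and send signals to fat cells and vessels. Those that hold themselves in the tissue without much input from blood monocytes carry low surface CCR2, the receptor for the monocyte chemokine CCL2, and often express the apoptotic-cell receptor TIMD4 and the hyaluronan receptor LYVE1. A myocardial infarction sets off a response outside the heart as well, with acute-phase proteins, stress hormones and release of blood cells from the marrow. The comparison asks how far fat macrophages of the CCR2-low kind differ after that injury.

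The values are RPKM, reads per kilobase of gene and per 1e6 reads. The read totals behind them, worked back from low values, were 57.6 to 75.0 M per library (M, 1e6). With these totals, 3 reads on a gene of 1 kb would read as 0.04 to 0.0521 RPKM. The totals depend on the range searched, since a doubled total also makes whole reads. MI 1 stood apart. Its correlation with the other 5 libraries over the tested genes was 0.947 to 0.971, and the first principal component, with 61.7% of the variance, placed it at 39.9 against -17.8 to 3.7 for the other 5. The second component, with 18.7%, placed the sham libraries at 5.6 to 14.2, MI 1 at 1.1, MI 3 at -12.9 and MI 4 at -14.9. MI 1 held 555 genes more than 1 log2 unit from the mean of the other 5 libraries, against 29 to 104 for any other library. The comparisons were therefore also read without MI 1.

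No single gene passed the test between MI and sham. The genes with the lowest p-values included Lrg1, a secreted acute-phase glycoprotein, Cfd, the complement protease adipsin that fat cells secrete, and the fat-cell transcripts Cidec and Adipoq, all higher after MI. Lower after MI, among the 8 genes with the lowest p-values that averaged 5 RPKM or more in the higher group, were Adk, which encodes adenosine kinase, the myeloid membrane gene Ms4a7, the interferon-induced gene Mx1 and the MHC class II chaperone gene H2-DMb2. Of 9607 genes tested with limma on log2(RPKM + 1), 0 had an adjusted p below 0.05 in either direction (0%), and the lowest adjusted p was 0.241. An unadjusted p below 0.05 was found for 753 genes (7.84%), of which 320 were higher (3.33%) and 433 lower (4.51%) after MI. All 3 MI libraries lay above all 3 sham libraries for 561 genes (5.84%) and below them for 837 (8.71%). When each column was first brought to the same sum, these numbers were 645 higher and 610 lower, so the balance of directions depends on the scaling. Without MI 1, 0 genes passed as well, with a lowest adjusted p of 0.0572 and 543 (5.65%) higher and 517 (5.38%) lower at an unadjusted p below 0.05. In simulated data with 3 libraries a group the test recovered 0% of genes changed by 0.5 log2 units, 71% at 1 and 90.5% at 2. There 200 genes with a mean log2(RPKM + 1) above 2 were changed, and noise was independent between genes and equal in both groups. No simulated library stood apart as MI 1 does, so these rates may not hold for the real libraries.

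Lrg1 (mm10 chr17:56119678-56122001, minus strand) encodes leucine-rich alpha-2-glycoprotein, a serum protein made in acute-phase responses by liver and by myeloid cells. It was at 14.6, 15.2 and 13.9 RPKM in sham 1, 3 and 4 and at 35.8, 62.5 and 40.5 RPKM in MI 1, 3 and 4. Every MI library was above every sham library. The means were 46.3 ± 14.2 against 14.6 ± 0.653 RPKM (SD, n = 3 each), a 3.17-fold ratio. The log2 difference was 1.56 (SE 0.20, limma adjusted p = 0.241). Without MI 1 it was 1.72 (limma adjusted p = 0.0704), and over all alternatives it ranged from 1.33 to 2.00, with limma adjusted p from 0.00119 to 0.925. The highest difference and lowest adjusted p came from limma library weights whose estimate had not converged.

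Cfd (mm10 chr10:79890853-79892655, plus strand) was at 11.9, 6.67 and 9.57 RPKM in sham 1, 3 and 4 and at 41.3, 68.6 and 32.3 RPKM in MI 1, 3 and 4, again without overlap. Its log2 difference was 2.18 (SE 0.30, limma adjusted p = 0.241), from 47.4 ± 18.9 against 9.39 ± 2.64 RPKM (SD, n = 3 each), and 2.25 without MI 1. Adipsin activates the alternative pathway of complement and is known best as a product of adipocytes. Other adipocyte transcripts were higher in the same libraries, with values given further on. Scaled to the same sum, Cfd read 15.74 to 28.83 (sham), 76.74 to 171.6 (MI) and 49.15 to 115.4 (steady state, CCR2-low). Sham libraries lay below that last range, MI 1 and MI 4 within it and MI 3 above it. Lrg1 read 34.75 to 35.96 (sham), 93.66 to 156.2 (MI) and 20.9 to 61.86 (steady state, CCR2-low), with only MI libraries above that range. Surgery and steady-state values differ in unit, processing and animals and were not tested against each other.

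The start regions of these transcripts are shown because they are the pair of named markers with the lowest p-values. Each runs from 250 bases before to 50 bases after the RefSeq start on GRCm38.p6, Lrg1 at chr17:56121897-56122196 on the minus strand and Cfd at chr10:79890603-79890902 on the plus strand. Capitals mark TATAAA.
Lrg1: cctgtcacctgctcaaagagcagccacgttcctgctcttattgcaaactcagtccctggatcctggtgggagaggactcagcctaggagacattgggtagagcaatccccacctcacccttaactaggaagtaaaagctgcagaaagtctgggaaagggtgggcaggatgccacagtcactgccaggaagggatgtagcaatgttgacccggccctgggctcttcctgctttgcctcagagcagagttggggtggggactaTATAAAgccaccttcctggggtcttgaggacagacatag
Cfd: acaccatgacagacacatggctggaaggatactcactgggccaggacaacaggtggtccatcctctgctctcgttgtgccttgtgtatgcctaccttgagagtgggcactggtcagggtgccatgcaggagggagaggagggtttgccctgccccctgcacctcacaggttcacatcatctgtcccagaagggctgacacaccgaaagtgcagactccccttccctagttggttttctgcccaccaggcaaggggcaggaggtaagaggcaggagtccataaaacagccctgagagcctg
Both strands were searched for TTCNNNGAA, the letters bound by STAT factors, for TTGCNNAA, those of C/EBP factors, and for TATAAA. In the Lrg1 window TATAAA lies from base 12 after the RefSeq start, and neither other motif is in it. The GENCODE gene begins upstream of that start, and which start these cells use was not tested, so the position holds for the RefSeq start alone. The Cfd window holds none of these letters. Of 32851 such windows, 8.3% hold TTCNNNGAA, 10.8% TTGCNNAA and 13.6% TATAAA. No value here bears on binding at these windows.

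**Figure D1:**
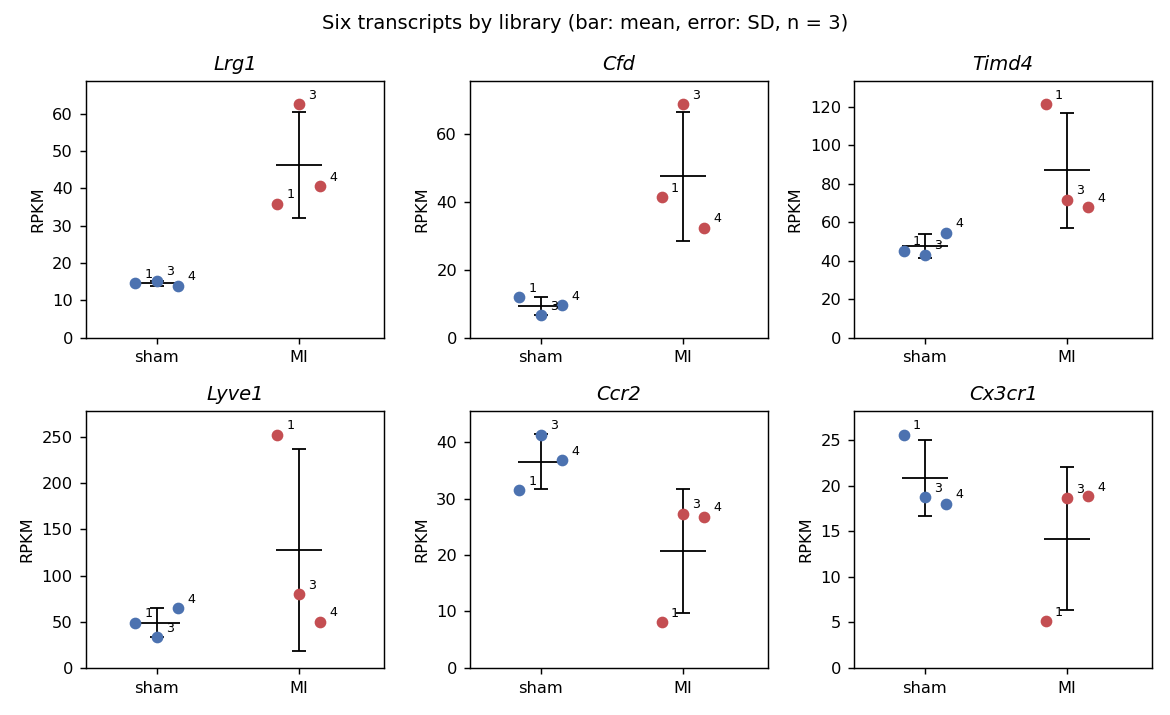
RPKM (vertical axes, linear, from 0) of 6 transcripts in each of the 3 sham (blue) and 3 MI (red) libraries, with library numbers beside the points, the mean as a horizontal bar and the SD as an error bar. Lrg1, Cfd and Timd4 are higher in every MI than in every sham library, Lyve1 overlaps, and MI 1 is the library that lies farthest out for Timd4, Lyve1, Ccr2 and Cx3cr1.

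The label was read against marker transcripts first. Csf1r, the receptor for the macrophage growth factor, was at 608 to 828 RPKM in the 6 libraries, and the F4/80 gene Adgre1 was at 858, 914 and 979 RPKM in sham 1, 3 and 4 and 489, 672 and 766 RPKM in MI 1, 3 and 4. All 15 macrophage identity genes passed the filter. Of them 3 were lower in all MI libraries, namely Adgre1, the pan-leukocyte gene Ptprc and the perforin-2 gene Mpeg1, and 0 were higher. Over all 21809 genes above 0, 6.48% were higher and 6.08% lower without overlap, and this is the background for each list count that follows (12.8% and 10.4% without MI 1). The summed RPKM of the 15 genes was 48860 to 54990 in sham libraries and 30180 in MI 1, 44390 in MI 3 and 55280 in MI 4. The low sum of MI 1 came with the lysozyme gene Lyz2, at 17600 RPKM there against 32621 to 42358 RPKM in the other 5 libraries.

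The transcripts of both sort markers were lowest in MI 1. Ccr2 was at 31.5, 41.4 and 36.9 RPKM in sham 1, 3 and 4 and at 8.09, 27.4 and 26.8 RPKM in MI 1, 3 and 4. The groups did not overlap, and the log2 difference was -0.95 (SE 0.43, limma adjusted p = 0.668) with MI 1 and -0.41 without it. Cx3cr1 was at 25.6, 18.8 and 18.1 RPKM in sham 1, 3 and 4 and at 5.11, 18.6 and 18.9 RPKM in MI 1, 3 and 4, so that without MI 1 the groups overlapped and the log2 difference was -0.13. With columns brought to a sum of 1e6, Cx3cr1 read 44.3 to 61.9 for the sham group and 13.4 to 46.5 for the MI group. Steady-state CCR2-low libraries read 1.59 to 2.55 for this gene, and their CCR2-high counterparts 52.6 to 78.1. For Ccr2 the ranges were 76.2 to 97.6 (sham), 21.2 to 68.4 (MI), 66.3 to 83.2 (steady state, CCR2-low) and 436 to 471 (steady state, CCR2-high). On this rough scale the Ccr2 transcript sat with the CCR2-low label, and the Cx3cr1 transcript lay above the steady-state CCR2-low range in all 6 libraries. These tables differ in unit and processing and the animals differ too, since Xist read 7.53 to 20.97 in the surgery libraries and was listed at 0 in the 6 steady-state macrophage libraries, with the reverse for Ddx3y at 43.6 to 61.1, so the levels were not tested against each other.

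Genes of resident tissue macrophages were high in MI 1 and mostly overlapped between the groups. Timd4 (mm10 chr11:46810800-46844332, plus strand) was at 45.1, 43.0 and 54.5 RPKM in sham 1, 3 and 4 and at 121, 71.7 and 67.8 RPKM in MI 1, 3 and 4. The groups did not overlap, with MI 1 the highest. The log2 difference was 0.81 (SE 0.23, limma adjusted p = 0.545), and 0.55 without MI 1. Lyve1 (mm10 chr7:110850607-110863239, minus strand) was at 48.8, 33.2 and 64.9 RPKM in sham 1, 3 and 4 and at 253, 80.0 and 50.1 RPKM in MI 1, 3 and 4. MI 4 lay below sham 4, and the log2 difference of 1.08 (SE 0.58, limma adjusted p = 0.718) was 0.42 without MI 1. Scaled to the same sum, the ranges of Timd4 were 102 to 136 (sham), 161 to 317 (MI), 185 to 223 (steady state, CCR2-low) and 31.6 to 35.5 (steady state, CCR2-high). Those of Lyve1 were 78.3 to 161.8 (sham), 119 to 661 (MI), 408.5 to 807.8 (steady state, CCR2-low) and 101.6 to 206.1 (steady state, CCR2-high). Only MI 1 reached the CCR2-low range of Lyve1, and the other surgery libraries lay within or below its CCR2-high range.

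Of the 25 resident-macrophage genes, all above the filter, 2 were higher without overlap after MI, Timd4 and the leukotriene C4 synthase gene Ltc4s, and 0 were lower. Ltc4s was at 170, 113 and 127 RPKM in sham 1, 3 and 4 and at 184, 209 and 198 RPKM in MI 1, 3 and 4, and was as far apart without MI 1 (log2 difference 0.59 against 0.55). The median log2 difference of the list was 0.66, against -0.02 over all genes tested, and fell to 0.38 without MI 1. MI 1 was the highest of the 6 libraries for 24 of these 25 genes, with a median of 1.53 log2 units above the mean of the other 5. The haemoglobin scavenger receptor gene Cd163 showed this at 55.1, 32.9 and 72.5 RPKM in sham 1, 3 and 4 against 227, 145 and 49.0 RPKM in MI 1, 3 and 4. The median deviation of the list from the mean of all 6 libraries was -0.47 log2 units in MI 4, between sham 3 at -0.85 and sham 1 at -0.14.

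MI 1 also held high levels of genes linked to alternative activation. The resistin-like gene Retnla was at 10119 RPKM in MI 1 against 243 to 956 RPKM in the other 5 libraries, and the lectin gene Mgl2 at 798 RPKM against 41.2 to 101 RPKM. The lipoxygenase gene Alox15 was at 82.7 RPKM and the eosinophil attractant gene Ccl24 at 144 RPKM in MI 1, with at most 14.6 and 21.6 RPKM elsewhere. In all 4 the second highest library was MI 3. Genes low in MI 1 included the chemokine gene Ccl5, at 76.6 RPKM against 320 to 1198 RPKM, and the monocyte gene Ly6c2, at 11.4 RPKM against 50.9 to 161 RPKM. MI 1 was the lowest library for 23 of 25 hypoxia and glycolysis genes, 32 of 34 nuclear genes of the respiratory chain and 44 of 50 ribosomal protein genes, and the highest for 19 of 24 immediate early genes. Over all 9607 genes it was the highest for 2853 and the lowest for 3474. Whether tissue handling, cell makeup or the animal set this library apart was not tested.

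**Figure D2:**
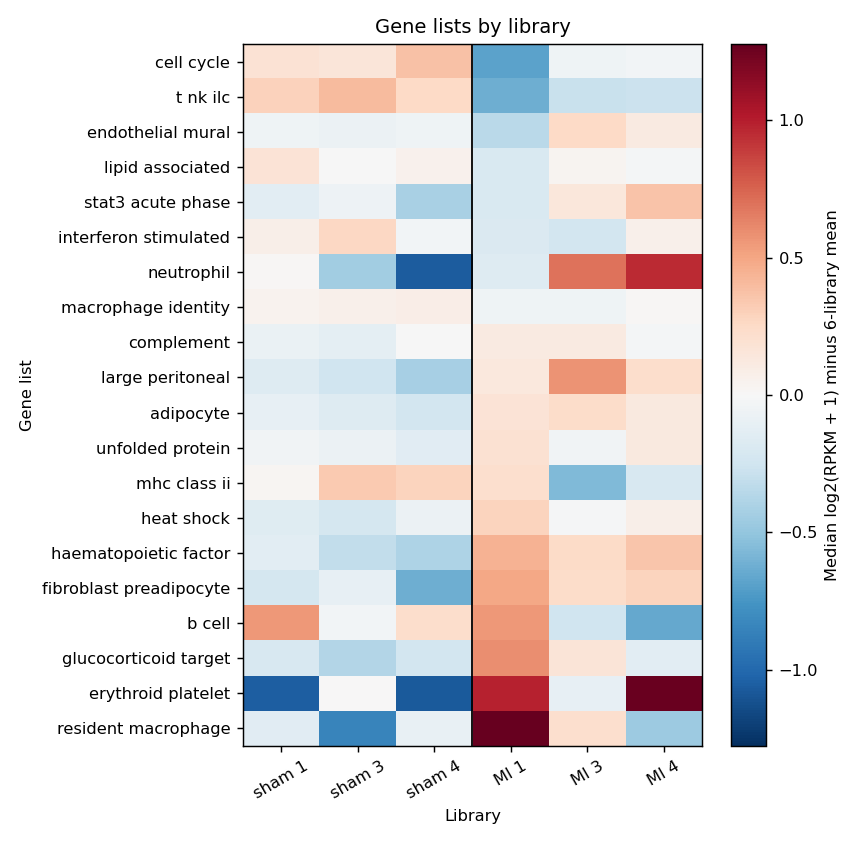
Median over the tested members of each gene list of log2(RPKM + 1) minus the gene's mean over the 6 libraries (colour), by list (rows) and library (columns), with lists ordered by MI 1 and a line between sham and MI. The resident list is highest in MI 1 at 1.28 and is at -0.47 in MI 4, while the cell cycle list is lowest in MI 1 at -0.68 and below 0 in all 3 MI libraries.

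Acute-phase proteins such as Lcn2, Hp and Saa3 were high in MI 3 and MI 4 and not in MI 1, while Stat3, Il1r1 and Steap4 were highest in MI 1. Of 24 acute-phase and STAT3-linked genes above 0, 4 were higher without overlap after MI with all libraries (Lrg1, Stat3, Il1r1 and Steap4), and 1, Fgl2, was lower. Il1r1, which did not pass the filter, was at 0.0741 to 0.174 RPKM in sham and 0.185 to 0.288 RPKM in MI libraries. Without MI 1, 11 were higher and 1 lower. The 11 include Orm2, at 0.0512 to 0.122 RPKM in sham libraries and at 0.132 and 0.125 RPKM in MI 3 and 4. Lcn2, the iron-chelator carrier lipocalin 2, was at 9.08, 13.3 and 8.76 RPKM in sham 1, 3 and 4 and at 10.7, 59.3 and 34.1 RPKM in MI 1, 3 and 4. MI 1 fell within the sham range and the other MI libraries lay well above it. Haptoglobin (Hp) was at 228, 253 and 199 RPKM in sham 1, 3 and 4 and at 110, 632 and 437 RPKM in MI 1, 3 and 4, so MI 1 was the lowest of all. The serum amyloid gene Saa3 was at 2183 to 3569 RPKM in sham libraries and at 1602, 5209 and 5346 RPKM in MI 1, 3 and 4. The signal transducer gene Stat3 was at 25.4 to 29.3 RPKM in sham libraries and at 44.1, 29.9 and 32.4 RPKM in MI 1, 3 and 4. The STAT3-induced oxidoreductase gene Steap4 was at 16.5 RPKM in MI 1, with 13.1 and 4.59 RPKM in MI 3 and 4 and 1.94 to 4.08 RPKM in sham libraries.

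Read without MI 1, the genes with the lowest p-values included protease inhibitor, protease and prostaglandin genes. Wfdc21, a secreted protein of the whey acidic type, was at 48.5, 54.2 and 28.3 RPKM in sham 1, 3 and 4 and at 56.5, 278 and 208 RPKM in MI 1, 3 and 4. Its log2 difference was 2.49 without MI 1 (limma adjusted p = 0.0784) and 1.80 with it (limma adjusted p = 0.556). Ptges, the inducible prostaglandin E synthase, was at 28.4, 33.3 and 27.6 RPKM in sham 1, 3 and 4 and at 23.5, 115 and 84.5 RPKM in MI 1, 3 and 4. The cysteine protease inhibitor gene Stfa3 and the serine protease gene Klk8 had log2 differences of 2.25 and 1.67 without MI 1 (limma adjusted p = 0.0572 for each and for Ptges). The scavenger receptor gene Marco was at 198 to 244 RPKM in sham libraries and at 211, 485 and 680 RPKM in MI 1, 3 and 4. For each of these 5 genes MI 1 was within or next to the sham range, and Stfa3 belongs to a family of near-identical copies, so its own level is uncertain.

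**Figure D3:**
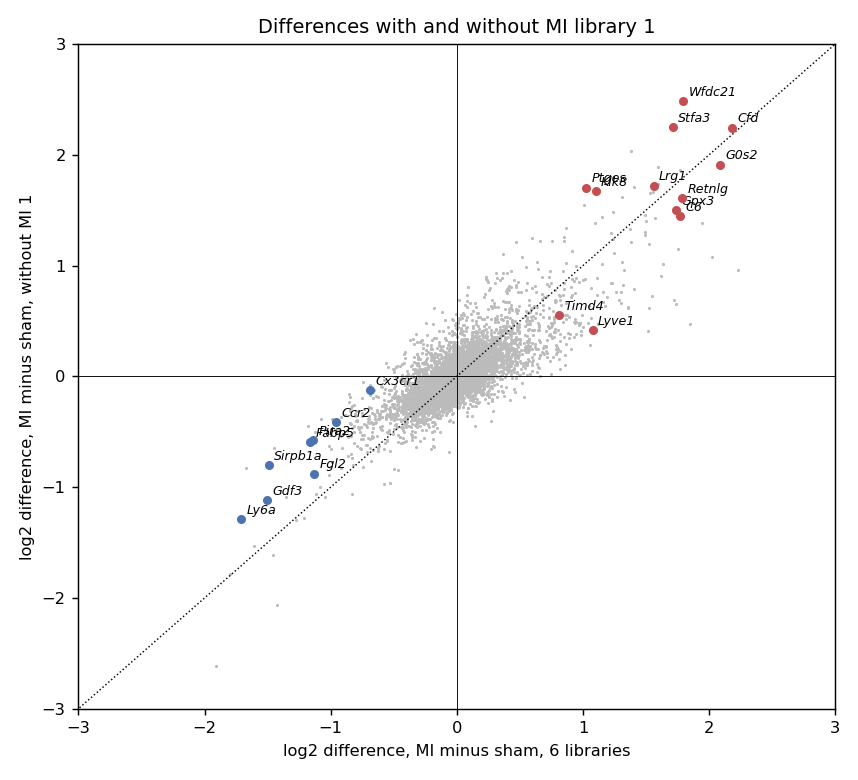
Log2 difference of MI minus sham on the log2(RPKM + 1) scale with all 6 libraries (horizontal) and without MI 1 (vertical), for the genes tested (grey) and named genes (red higher, blue lower), with equality as a dotted line and 3 genes beyond the axes. Lrg1 and Cfd lie near the line, Wfdc21 and Ptges lie above it, and Timd4, Lyve1, Ccr2 and Sirpb1a lie nearer to 0 without MI 1.

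Large peritoneal macrophage genes showed both patterns. Of 19 such genes above 0, 6 were higher without overlap after MI and 0 lower, and 13 and 0 without MI 1. Serpinb2, a plasminogen activator inhibitor, was at 15.2, 14.2 and 14.9 RPKM in sham 1, 3 and 4 and at 38.9, 70.3 and 34.2 RPKM in MI 1, 3 and 4 (log2 difference 1.56, SE 0.26, limma adjusted p = 0.339). The lubricin gene Prg4 was at 5.59, 6.4 and 5.63 RPKM in sham 1, 3 and 4 and at 24.0, 16.3 and 10.4 RPKM in MI 1, 3 and 4, with MI 1 the highest. Selp, for P-selectin, and Icam2 were also higher in every MI library. The fibronectin gene Fn1, the coagulation factor gene F10 and the protease inhibitor gene Slpi were higher only in MI 3 and MI 4, with MI 1 at 91.4, 19.4 and 131 RPKM below or within the sham range. Gata6, the defining transcription factor of these cells, was at 0.0663 to 0.353 RPKM in all 6 libraries.

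Many transcripts of fat cells and stromal cells were higher in every MI library, most of them at low levels. Of 23 adipocyte genes above 0, 12 were higher without overlap and 0 lower, and their summed RPKM was 191.8 to 212.6 over sham and 252.3 to 331.2 over MI libraries. Cidec, a lipid droplet protein, was at 1.53, 1.12 and 1.08 RPKM in sham 1, 3 and 4 and at 5.6, 6.75 and 3.87 RPKM in MI 1, 3 and 4 (log2 difference 1.49, limma adjusted p = 0.241). Adiponectin (Adipoq) was at 1.52, 0.741 and 0.992 RPKM in sham 1, 3 and 4 and at 3.80, 4.60 and 3.25 RPKM in MI 1, 3 and 4. The fatty acid carrier gene Fabp4, which macrophages also express, was at 20.9 to 26.6 RPKM in sham and at 65.3, 92.7 and 38.1 RPKM in MI 1, 3 and 4. Car3, a carbonic anhydrase of fat cells, was at 5.24 to 7.02 RPKM in sham libraries and at 26.2, 22.3 and 12.0 RPKM in MI 1, 3 and 4, and the lipolysis inhibitor gene G0s2 was at 1.51 to 6.49 RPKM against 19.7, 15.2 and 11.7 RPKM. Without MI 4, Cidec, Car3 and the plasma glutathione peroxidase gene Gpx3 had limma adjusted p = 0.0297, 0.0297 and 0.015, against 0.241, 0.371 and 0.373 with it. The lipoprotein lipase gene Lpl, which macrophages also express and which was the most abundant member in sham libraries, was not among them. It was at 106, 92.4 and 117 RPKM in sham 1, 3 and 4 and at 61.7, 63.8 and 95.4 RPKM in MI 1, 3 and 4, with MI 4 above sham 3 (log2 difference -0.53, limma adjusted p = 0.578). The adipocyte genes Plin1, Slc2a4 and Lep were at or below 0.275 RPKM in all 6 libraries and overlapped.

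Fibroblast and preadipocyte genes showed the highest share of all the lists described, with 17 of 20 higher without overlap after MI and 0 lower. Leaving out MI 1 can only add to such counts, and here it added none. Their summed RPKM was 164.5 to 197.4 over sham and 225.6 to 264.6 over MI libraries, much of it from gelsolin (Gsn), which overlapped between groups at 110 to 131 RPKM. Decorin (Dcn), a matrix proteoglycan, was at 25.8, 20.6 and 9.10 RPKM in sham 1, 3 and 4 and at 64.7, 49.5 and 38.2 RPKM in MI 1, 3 and 4. The collagen gene Col3a1 was at 3.23 to 5.74 RPKM in sham and 6.48 to 10.5 RPKM in MI libraries, and the fibroblast receptor gene Pdgfra at 0.0986 to 0.151 RPKM against 0.204 to 0.683 RPKM. Of 24 endothelial and mural genes, 12 were higher without overlap and 0 lower, all at low levels, such as Kdr, the VEGF receptor gene, at 0.216 to 0.275 RPKM against 0.615 to 0.718 RPKM. Their summed RPKM was 38.4 to 41.36 over sham and 42.99 to 56.15 over MI libraries. Much of it came from Cav1, at 8.48 to 13.7 RPKM, and Eng, at 14.9 to 19.0 RPKM, which overlapped between groups. In MI 3 the mural genes Acta2 and Tagln, which also overlapped, were at 6.77 and 5.03 RPKM. Transcripts of these non-macrophage cells were thus higher in the same group as Cfd, Cidec and Car3, but not in the same order by library. Cfd, Cidec and Kdr were highest in MI 3, where Col3a1 was lowest of the MI libraries, and Car3 and Dcn were highest in MI 1. The part of these cells in those differences was not tested. In these bulk samples, more cells of a type and more RNA per cell cannot be told apart.

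Blood cell transcripts went in opposite directions. Of 20 neutrophil genes above 0, 6 were higher without overlap after MI and 0 lower, and 10 and 0 without MI 1. The alarmin gene S100a8 was at 41.9, 28.0 and 16.3 RPKM in sham 1, 3 and 4 and at 46.1, 70.7 and 83.6 RPKM in MI 1, 3 and 4, with MI 1 just above sham 1. Retnlg was at 16.3, 3.70 and 2.85 RPKM in sham 1, 3 and 4 and at 29.2, 22.4 and 17.2 RPKM in MI 1, 3 and 4, where sham 1 was close to MI 4. The neutrophil marker Ly6g was at 0.155 to 0.84 RPKM and overlapped, and the granule genes Mpo, Elane and Ctsg were at or below 0.151 RPKM. The summed RPKM of the list was 226.6 to 310.6 over sham and 562.8 to 731.8 over MI libraries. In MI 1, 324 RPKM of this sum came from Mmp9, which overlapped between groups, and without Mmp9 the sums were 131.9 to 238.2 over sham libraries and 238.4, 586.2 and 527.3 RPKM in MI 1, 3 and 4. Monocytes and macrophages also express S100a8, Wfdc21 and Mmp9 on this list, and the part of neutrophils was not tested.

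Of 13 red cell and platelet genes, 6 were higher without overlap and 0 lower. The haemoglobin gene Hba-a2 was at 24.2, 54.0 and 25.1 RPKM in sham 1, 3 and 4 and at 106, 54.4 and 138 RPKM in MI 1, 3 and 4, with sham 3 beside MI 3, and reads of its near-identical copy Hba-a1 may not be separable. Some lymphocyte genes were lower. Of 15 B cell genes, 6 were lower without overlap and 0 higher, among them the antigen receptor gene Cd79a at 9, 3.49 and 3.15 RPKM in sham 1, 3 and 4 and 1.19, 2.00 and 2.49 RPKM in MI 1, 3 and 4. The immunoglobulin gene Ighm overlapped, at 170 to 258 RPKM in sham and 128 to 355 RPKM in MI libraries. Ighm, Ighd and Bank1 were highest in MI 1. The summed RPKM of the B cell list was 197.2 to 311.1 over sham libraries and 396.5, 173.4 and 144.8 in MI 1, 3 and 4. Of 20 T, NK and innate lymphoid genes, 7 were lower and 1, Gzmb, was higher. The T cell receptor constant gene Trbc2 was at 1.82, 1.77 and 1.80 RPKM in sham 1, 3 and 4 and at 0.311, 0.529 and 0.622 RPKM in MI 1, 3 and 4. It passed the filter on low values through the sham libraries alone, so these levels are given as a description. Cd3e stayed at or below 0.332 RPKM in all libraries.

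**Figure D4:**
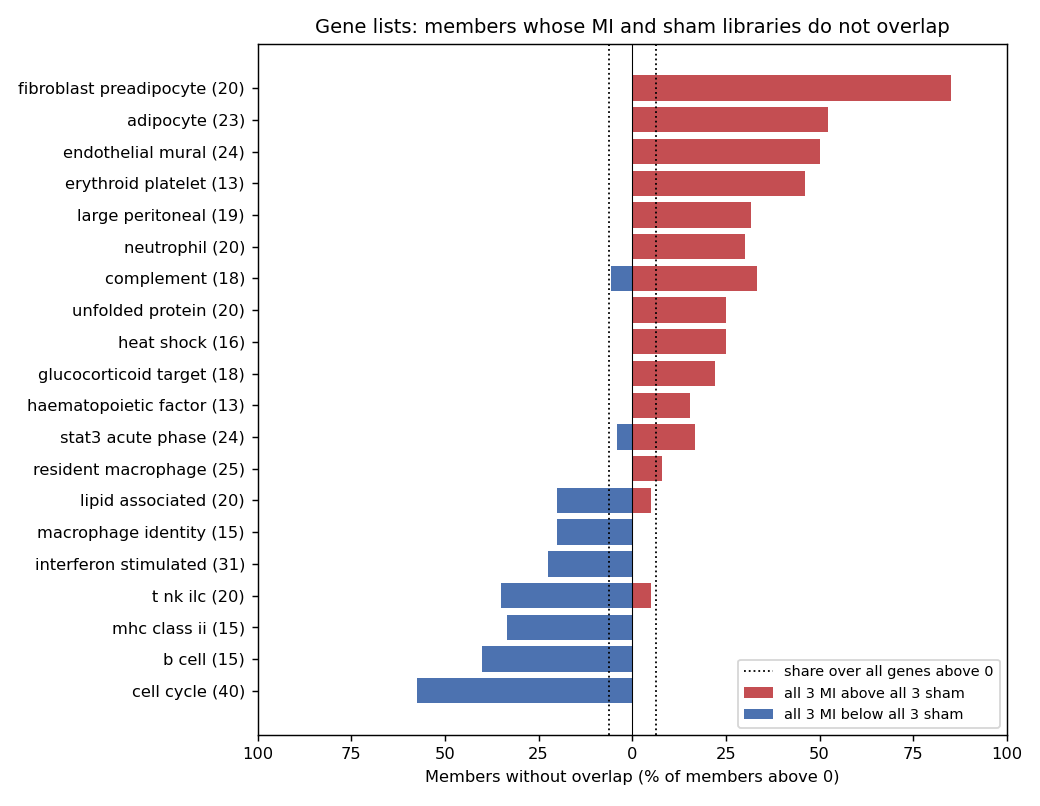
Share of the members above 0 (number in brackets) whose 3 MI libraries all lie above (red, right) or all below (blue, left) the 3 sham libraries, in percent, for 20 gene lists, with dotted lines at the shares over all 21809 genes above 0 (6.48% and 6.08%). Fibroblast, adipocyte and endothelial lists lie farthest to the right, and cell cycle, B cell and T cell lists farthest to the left with the MHC class II list.

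Cell cycle genes were lower after MI and more so in MI 1. Of 40 such genes above 0, 23 were lower without overlap and 0 higher, and 24 and 0 without MI 1. The median log2 difference was -0.50 over the 39 tested members and -0.30 without MI 1, against -0.02 and -0.01 over all genes tested. The proliferation gene Mki67 was at 3.53, 2.69 and 3.28 RPKM in sham 1, 3 and 4 and at 1.14, 2.30 and 2.17 RPKM in MI 1, 3 and 4. Rrm2, the regulated subunit of ribonucleotide reductase, was at 7.68, 7.10 and 10.3 RPKM in sham 1, 3 and 4 and at 2.28, 5.09 and 5.71 RPKM in MI 1, 3 and 4. The mitotic kinase gene Aurkb was at 9.41 to 11.2 RPKM in sham and at 3.57, 7.03 and 6.75 RPKM in MI 1, 3 and 4. MI 1 was the lowest library for 34 of the 39 tested members. No single member passed the test, the replication genes Pcna and Mcm3 overlapped, and the tubulin gene Tuba1b was at 272 to 312 RPKM in sham and 277 to 401 RPKM in MI libraries. Some B and T cell genes were lower in the same libraries and come from cells that can divide, and their part was not tested. The median deviation of the B cell list from the 6-library mean was 0.55 log2 units in MI 1, against -0.035 to 0.558 in the sham libraries. That of the T, NK and innate lymphoid list was -0.626 in MI 1, against 0.259 to 0.4 in the sham libraries. These medians rest on 7 and 5 tested members.

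MHC class II genes were mostly lower in MI 3 and MI 4 and not in MI 1. Of 15 genes of class II presentation above 0, 5 were lower without overlap with all libraries, 12 without MI 1, and 0 were higher in either case. H2-Ab1, a class II chain, was at 4588, 5950 and 6271 RPKM in sham 1, 3 and 4 and at 6285, 2430 and 3996 RPKM in MI 1, 3 and 4. MI 1 was the highest of the 6 libraries and MI 3 the lowest. The invariant chain gene Cd74 went from 8622 to 10937 RPKM in sham libraries and was at 12399, 4174 and 7462 RPKM in MI 1, 3 and 4. The transactivator gene Ciita was at 23.5 to 30.3 RPKM in sham and at 29.5, 16.4 and 20.2 RPKM in MI 1, 3 and 4. The chaperone subunits H2-DMb2, H2-Oa and H2-Ob were lower in all 3 MI libraries. H2-Oa passed the filter through the sham libraries alone, at 1.23 to 2.25 RPKM there against 0.222 to 0.836 RPKM in MI libraries. H2-DMb2 was at 7.69, 5.65 and 6.00 RPKM in sham 1, 3 and 4 and at 2.90, 3.67 and 3.95 RPKM in MI 1, 3 and 4 (log2 difference -0.72, SE 0.14, limma adjusted p = 0.371). H2-Oa and H2-Ob are typical of B cells, some of whose markers were also lower, and that part was not tested.

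Interferon-stimulated genes were lower for a minority. Of 31 above 0, 7 were lower without overlap after MI and 0 higher, and 9 and 0 without MI 1. Mx1, an antiviral GTPase gene, was at 6.05, 7.05 and 6.44 RPKM in sham 1, 3 and 4 and at 4.23, 3.63 and 4.49 RPKM in MI 1, 3 and 4 (log2 difference -0.56, SE 0.10, limma adjusted p = 0.371). Ddx58, which encodes the RNA sensor RIG-I, was at 8.47 to 9.23 RPKM in sham and at 6.21 to 6.66 RPKM in MI libraries. Irf7, the interferon-induced regulator, was at 105, 128 and 104 RPKM in sham 1, 3 and 4 and at 71.5, 70.1 and 90.4 RPKM in MI 1, 3 and 4. The other members overlapped, among them Isg15 at 35.2 to 59.9 RPKM in sham and 32.9 to 73.3 RPKM in MI libraries.

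Complement genes were mixed. Of 18 above 0, 6 were higher and 1 lower without overlap, and 4 and 0 when columns were scaled to the same sum. Besides Cfd these were C2, C4b, the anaphylatoxin receptor gene C5ar1, the C1 inhibitor gene Serping1 and Cr1l. C5ar1 was at 366, 298 and 330 RPKM in sham 1, 3 and 4 and at 559, 497 and 423 RPKM in MI 1, 3 and 4. Serping1, also on the fibroblast list, was at 8.07, 9.22 and 5.39 RPKM in sham 1, 3 and 4 and at 15.5, 14.4 and 14.5 RPKM in MI 1, 3 and 4 (log2 difference 0.91, SE 0.17, limma adjusted p = 0.371). The C1q chain genes, the most abundant complement transcripts here, had log2 differences of 0.04 for C1qa, -0.05 for C1qb and 0.01 for C1qc.

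Glucocorticoid-induced genes were higher for 4 of 18 without overlap, Klf9, Per1, Dusp1 and Errfi1, and 0 were lower. The transcription factor gene Klf9 was at 1.26, 1.27 and 1.04 RPKM in sham 1, 3 and 4 and at 4.26, 3.20 and 1.86 RPKM in MI 1, 3 and 4. The receptor chaperone gene Fkbp5, a sensitive target, was at 0.268 to 0.412 RPKM in sham libraries and at 1.36, 1.70 and 0.29 RPKM in MI 1, 3 and 4, so MI 4 lay with the sham libraries. Of 20 unfolded protein response genes, 5 were higher and 0 lower, among them Xbp1 at 50.6 to 54.5 RPKM in sham and 68.9 to 75.2 RPKM in MI libraries. Of 16 heat shock genes, 4 were higher and 0 lower, and the inducible genes Hspa1a and Hspa1b overlapped. Of 13 haematopoietic factors above 0, 2 were higher and 0 lower (4 and 0 without MI 1). The higher ones were the adhesion gene Vcam1 and the macrophage growth factor gene Csf1. Vcam1 was at 12.2 to 14.0 RPKM in sham and 29.0, 28.8 and 16.9 RPKM in MI 1, 3 and 4. Csf1 was at 0.591 to 0.902 RPKM against 1.15 to 1.83 RPKM, and passed the filter through the MI libraries alone. The 4 without MI 1 include Thpo, at 0 in the sham libraries and at 0.0319 and 0.00756 RPKM in MI 3 and 4.

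Of 20 lipid-associated macrophage genes, 4 were lower without overlap and 1, Fabp4, was higher. The lysosomal glycoprotein gene Gpnmb was at 9.31, 5.64 and 8.53 RPKM in sham 1, 3 and 4 and at 3.64, 4.86 and 4.94 RPKM in MI 1, 3 and 4. Fabp5 was at 28.4 to 36.6 RPKM in sham libraries and at 5.99, 18.8 and 25 RPKM in MI 1, 3 and 4. The lipid receptor gene Trem2 and osteopontin (Spp1) overlapped. For Fabp5 and the galectin-3 gene Lgals3, MI 1 was the lowest library, and the log2 differences of -1.16 and -0.56 were -0.59 and -0.29 without it.

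Among single genes lower after MI, Gdf3, a TGF-beta family ligand of fat macrophages, was at 11.6, 13.1 and 11.3 RPKM in sham 1, 3 and 4 and at 1.66, 4.44 and 5.59 RPKM in MI 1, 3 and 4. Its log2 difference was -1.51 (SE 0.32, limma adjusted p = 0.387) and -1.12 without MI 1 (limma adjusted p = 0.0704). Ms4a7 was at 98.7, 81.0 and 91.1 RPKM in sham 1, 3 and 4 and at 62.4, 55.8 and 49.4 RPKM in MI 1, 3 and 4. Adk, which removes adenosine, was at 28.7, 29.97 and 31.4 RPKM in sham 1, 3 and 4 and at 18.6, 20.4 and 21.4 RPKM in MI 1, 3 and 4. Both kept the groups apart, and their log2 differences were -0.68 (SE 0.13) and -0.55 (SE 0.09), with limma adjusted p = 0.371 and 0.339. Without MI 1 these log2 differences were -0.77 and -0.50. Cd300lb, an activating myeloid receptor gene, was at 34.5 to 43.8 RPKM in sham and 25.2 to 27.5 RPKM in MI libraries. Fgl2, a fibrinogen-like protein gene, was at 138, 214 and 176 RPKM in sham 1, 3 and 4 and at 55.1, 73.8 and 119 RPKM in MI 1, 3 and 4.

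Ly6a, Sirpb1a, Pira2 and the class I gene H2-Q7 were also lower in every MI library, with log2 differences of -1.71, -1.49, -1.14 and -1.08, but they have near-identical relatives between which reads may have been split. Sirpb1a and Pira2 were lowest in MI 1, at 2.31 and 10.2 RPKM, and their log2 differences were -0.80 and -0.58 without it. The gene BC147527 was at 7.64 to 9.25 RPKM in sham and 4.21 to 5.56 RPKM in MI libraries. Higher in every MI library were also Mgp, C6 and Mrps6. The matrix protein gene Mgp was at 2.00 to 3.45 RPKM in sham and 6.17 to 10.3 RPKM in MI libraries, the terminal complement gene C6 at 4.62 to 7.95 RPKM against 11.2 to 38.7 RPKM, and the mitochondrial ribosome gene Mrps6 at 8.38 to 9.35 RPKM against 11.9 to 14.9 RPKM. Over the 21 remaining gene lists, which cover monocyte, cytokine, chemokine, lipid, iron and energy genes among others, 0 to 15% of members were higher and 0 to 16% lower without overlap. Without MI 1 these shares were 0 to 44.4% and 0 to 20%. The highest of them was that of classical monocyte genes, of which 8 of 18 were then higher and 1, Ccr2, lower, against 2 and 1 with all libraries. The chitinase-like gene Chil3 was at 72.7, 74.5 and 60.5 RPKM in sham 1, 3 and 4 and at 31.3, 170 and 131 RPKM in MI 1, 3 and 4, and the calcium-binding gene S100a4 at 131 to 150 RPKM in sham libraries and at 50, 172 and 191 RPKM in MI 1, 3 and 4. The monocyte genes Ly6c2, Plac8 and Ms4a4c overlapped with and without MI 1. Scavenger and iron genes were higher for 5 of 19 and non-classical monocyte genes for 4 of 16 without MI 1.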

How the data were processed

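Cells went from the sorter into PicoPure extraction buffer, per the labels' protocols. The authors deposited RPKM values for the 6 surgery libraries, with columns named as paired and trimmed reads, per the file headers. The steady-state table holds TPM values, per the file headers, and was used only for levels set beside the surgery libraries. Per the submitters' processing notes the reads were placed on mm10, and the aligner and counter are not named in the sources used here. Positions are from GENCODE M21, which holds 48349 of the 48709 gene IDs.

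Depth was worked back from low RPKM values over a limited range of totals. Of these values, 86.7 to 88.7% were whole reads within 0.05. Too few were whole for a count test. The comparison used limma 3.58.1 in R 4.3.3 (lmFit, then eBayes with an intensity trend) on log2(RPKM + 1), which understates differences of low genes. It covered 9607 genes at 1 RPKM or more in at least 3 of the 6 libraries, two-sided, with Benjamini-Hochberg adjustment over all of them and a threshold of 0.05. The fit was tested on simulated data, in which up to 8.4% of calls were false.

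Counts of list members whose groups do not overlap cover every member above 0 in any library, with no filter on level. A member at 0 in every sham library can still enter through the MI libraries, as Thpo did, and the reverse holds. Leaving out a library can keep or raise such a count but cannot lower it. Named genes were the 4 markers and 2 sort-marker transcripts, the 8 genes with the smallest p and the 6 with the largest difference in each direction, at a mean of 5 RPKM or more in the higher group and without overlap, and up to 4 members with the smallest p of a described list. Other named genes, those read without MI 1 included, were chosen after their values were seen. The members and the 41 gene lists were chosen with earlier results of these data known. The alternatives were 2 filters, 2 pseudocounts, 3 scalings, 2 variance models, library weights, 2 pairings and leaving out each library.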

Additional observations from a re-analysis of the deposited data

How the results depend on the processing

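The count of 0 called genes did not change under 15 of the 18 alternatives. With limma array weights, which ranged from 0.146 for MI 1 to 12.6 for MI 3, 1809 genes passed, and the log2 differences of Timd4, Lyve1, Lrg1 and Cfd were 0.63, 0.79, 2.00 and 2.68 (limma adjusted p = 0.00716, 0.0415, 0.00119 and 0.00155). The estimate of these weights had not converged. Leaving out 1 library gave 0 to 6 called genes. The 1 gene without sham 1 was Igkv12-89, and the 6 without MI 4 were Car3, Sparcl1, Cidec, Dpep1, Gpx3 and Ctla2b. The number at an unadjusted p below 0.05 was 3525 with these weights and ranged from 381 without sham 4 to 1448 without MI 4 among the other alternatives that kept the filter.

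Whether the library numbers pair the samples cannot be decided from the correlations that follow. These are not independent of each other, because the deviations within a group cancel out. Deviations of same-numbered libraries from their group means correlated at 0.17, 0.10 and -0.51 by column number, and the titles number the sham libraries differently, with correlations of -0.57, 0.06 and -0.10. With a replicate block by column number or by title number, 0 genes passed, with lowest adjusted p of 0.422 and 0.719.

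Of 106 genes followed through 18 alternatives, 4 changed sign when 1 library was left out. The 106 were chosen in large part for small p or for groups without overlap. A gene without overlap cannot change sign when a library is left out, so this count does not measure how stable the directions are. The ranges were -0.193 to 0.795 for Acta2, -0.036 to 0.571 for Adora2b, -0.094 to 0.411 for Pecam1 and -0.078 to 0.722 for Tagln. When 1 library was left out, Timd4 ranged from 0.55 to 0.96, Lyve1 from 0.42 to 1.57, Lrg1 from 1.33 to 1.72, Cfd from 1.89 to 2.42, Ccr2 from -1.23 to -0.41 and Cx3cr1 from -0.98 to -0.13. The median log2 difference changed sign across alternatives in 11 of 40 lists, 3 of them described one by one (endothelial, lipid-associated and macrophage identity). With 3 libraries a group, the test called none of the simulated differences of 0.5 log2 units.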
